A study of Mus musculus with 12 samples.

Results

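The genes described here are general markers of macrophages and monocytes: Adgre1, Csf1r, Fcgr1, C1qa, C1qb, C1qc, Cd68, Lyz2, Mpeg1 and Ly6c2. They were chosen by name, as probe sets annotated to exactly 1 symbol, and all 10 were on the array, each with 1 probe set, among 22180 named genes. Liver RNA came from male C57BL6/J mice aged 8 to 10 weeks. Each had received an Ad5 adenovirus by the tail vein 4 days earlier and was killed at 3 pm after 6 h of fasting. In 6 arrays the virus was Ad-GFP, which carries green fluorescent protein and is the control (GFP 1 to 6). In the other 6 it was Ad-hApoF, which carries human apolipoprotein F, a secreted protein of lipoproteins (hApoF 7 to 12). Both groups therefore carried a virus, the labels give neither its dose nor the promoter of the transgene, and uninjected livers were not analysed here. The question is whether these transcripts differ when human ApoF is made in the liver.

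The liver holds a large resident macrophage population, the Kupffer cells, which line the sinusoids and take up particles, including injected adenovirus, from the blood. Monocytes from the circulation can enter the tissue and become macrophages there. Signalling through the Csf1 receptor keeps macrophages alive, Fc receptors and C1q link them to antibody and complement, and lysosomal proteins digest what they take up. In whole liver, fewer cells of a type and less RNA per cell cannot be told apart.

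None of the 10 genes changed between hApoF and GFP livers by limma with Benjamini-Hochberg adjustment over all genes at a threshold of 0.05. With 6.91% of all genes called, 2.11% higher and 4.8% lower, 0 of 10 is close to the background share and is not itself a result about these genes. The count was also 0 at an unadjusted p under 0.05, which 21.3% of all genes reached. It was 0 when every probe set of the table was tested (4.34% called). By the exact permutation test it was 0 at a p under 0.05, and the share of all genes by that test was not computed. The groups overlapped for all 10, whereas they did not for 4.98% of all genes. The fitted log2 differences, hApoF minus GFP, ran from -0.16 to 0.20, 6 above and 4 below 0. Their median was 0.01, beside 0.03 over all genes. Without GFP 2 the median was -0.07 with 3 genes above 0, and without GFP 3 it was 0.09 with 9 above 0. For all 10 the 95% confidence interval of the difference lay within 1 log2 unit of 0, and for 7 within 0.5. The lowest adjusted p of any member under the 19 other settings and omissions was 0.118, that of C1qa without GFP 4 and hApoF 12 (range for C1qa 0.118 to 0.516). In every array all 10 genes were above the array's median of all probe sets. That median is not a detection limit, and no detection call was made. What varied was the level between arrays of a group: GFP 2 was the lowest GFP array for 8 of the 10 genes and GFP 3 the highest for 8.

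**Figure D1:**
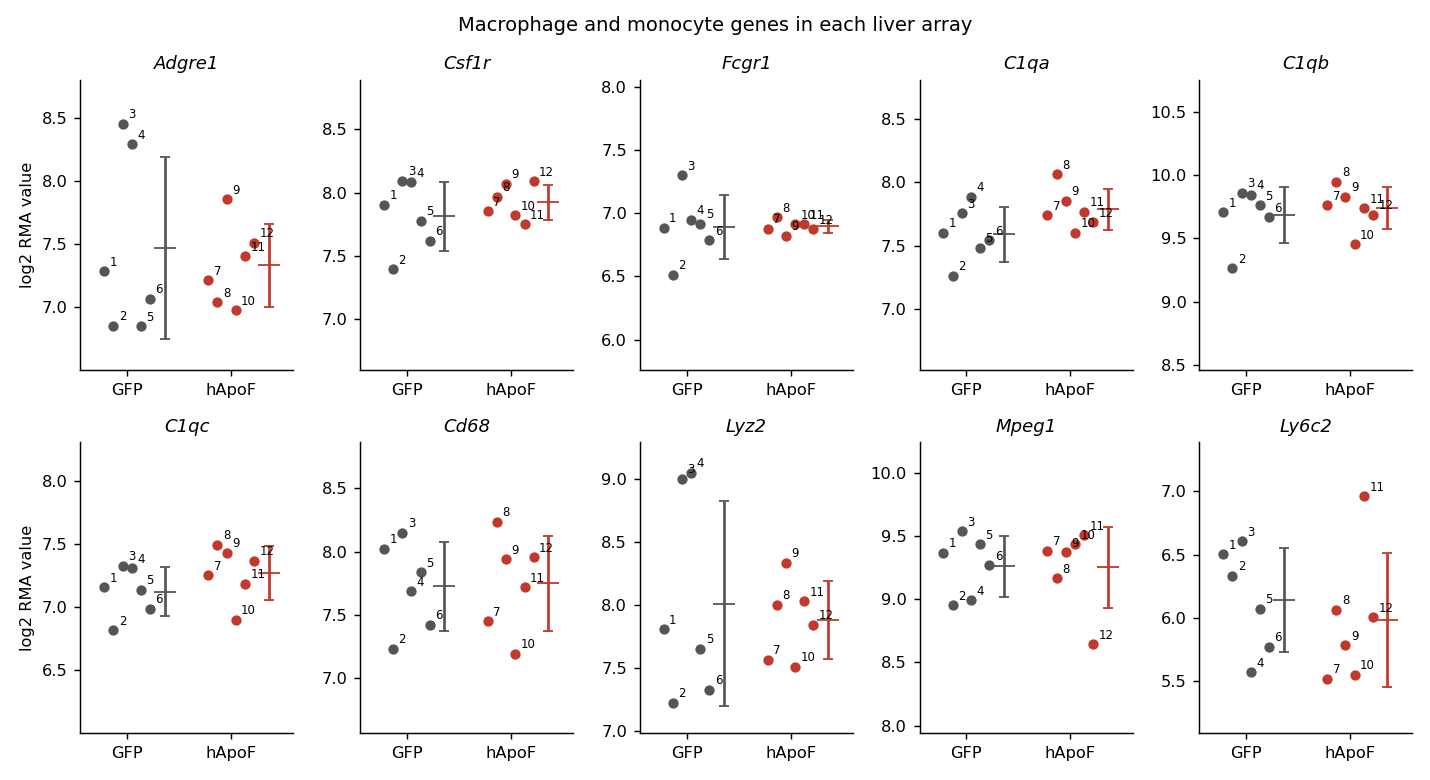
Log2 RMA values (vertical axis, the same span of values in every panel) of the 10 genes in GFP (grey) and hApoF (red) livers, with the replicate number beside each point and the group mean and SD (n = 6 each) at its right. The groups overlap in every panel, and GFP 3 and GFP 4 stand above the other arrays for Adgre1 and Lyz2.

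Among the surface receptors, Adgre1 encodes F4/80, the classical marker of mouse macrophages. Its log2 level was 6.85 at the lowest, 7.18 at the median and 8.45 at the highest in GFP livers, and 6.97, 7.31 and 7.85 in hApoF livers. The high GFP values were those of GFP 3 (8.45) and GFP 4 (8.29), both above every hApoF array, while the other 4 GFP arrays were at or below 7.29. The difference was -0.13 (SE 0.27, 95% interval -0.71 to 0.44, limma adjusted p = 0.821, exact permutation p = 0.688). Its sign turned when GFP 3 (0.06) or GFP 4 (0.03) was left out.

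Csf1r encodes the receptor for the growth factors Csf1 and Il34 that macrophages need to survive. It was 7.39, 7.84 and 8.09 (lowest, median, highest) in GFP livers and 7.75, 7.91 and 8.09 in hApoF livers. The highest values of the groups were equal at this rounding, and GFP 2 (7.39) and GFP 6 (7.62) lay below every hApoF array. The difference was 0.11 (SE 0.11, interval -0.13 to 0.36, limma adjusted p = 0.621).

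Fcgr1, the high-affinity receptor for immunoglobulin G, had the tightest values of the 10 in hApoF livers, 6.82 to 6.97 with a median of 6.90 (SD 0.05, n = 6). In GFP livers it ran from 6.51 in GFP 2 to 7.30 in GFP 3, also with a median of 6.90 (SD 0.26, n = 6). The hApoF arrays thus lay inside the range of the GFP arrays, and the difference was 0.0032 (SE 0.10, interval -0.21 to 0.22, limma adjusted p = 0.990). The SD was larger in GFP than in hApoF livers for 6 of the 10 genes, and whether the spread differs between the groups was not tested.

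C1qa, C1qb and C1qc encode the 3 chains of C1q, the recognition molecule of the classical complement pathway, which in most tissues is made by macrophages. The genes are neighbours on chromosome 4 with no other gene of the RefSeq table between them. In GFP livers C1qa was 7.26, 7.57 and 7.89 (lowest, median, highest), and in hApoF livers 7.60, 7.75 and 8.07. All 6 hApoF arrays were above the GFP mean of 7.59, but GFP 4 (7.89) was above 5 of them. C1qa had the lowest p of the 10 genes, with a difference of 0.20, or 1.15-fold (SE 0.10, interval -0.03 to 0.42, limma adjusted p = 0.299, exact permutation p = 0.106).

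C1qb ran from 9.27 to 9.86 in GFP livers (median 9.73) and from 9.45 to 9.95 in hApoF livers (median 9.75), a difference of 0.05 (SE 0.11, limma adjusted p = 0.823). C1qc ran from 6.81 to 7.33 (median 7.15) and from 6.90 to 7.49 (median 7.31), a difference of 0.15 (SE 0.11, limma adjusted p = 0.477). The 3 chains shared most of their extreme arrays: GFP 2 was the lowest GFP array, hApoF 10 the lowest hApoF array and hApoF 8 the highest hApoF array for each of them, while the highest GFP array was GFP 4 for C1qa and GFP 3 for C1qb and C1qc. The sign of the C1qb difference turned without GFP 2 (-0.03).

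Upstream sequence was read for the members from the RefSeq promoter table (build GRCm38.p6), which held 7 of the 10. The stretches printed here show where the letters AGGAAGT occur on either strand (ACTTCCT on the other) in the 250 bases before the gene start. The letters resemble the purine-rich site of PU.1, the transcription factor encoded by Spi1 that macrophage genes are known for, and were chosen after these sequences had been read. They were found for 5 of the 7 members, in 6 of their 8 windows (Ly6c2 has more than 1 listed start), and in 7.69% of 32851 such windows of all genes. The match begins 53 bases before the gene start for C1qb, 195 for C1qc, 100 for Lyz2, 61 for Fcgr1 and 107 for Ly6c2. From the other listed start of Ly6c2 that match begins 141 bases before, and a further match, not printed, 7 bases before. Capitals mark the match, and all stretches run 5′ to 3′ in the direction of the gene, here the minus strand.
C1qb (chr4:136886217-136886283): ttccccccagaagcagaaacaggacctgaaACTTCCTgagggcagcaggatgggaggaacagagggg
C1qc (chr4:136893073-136893139): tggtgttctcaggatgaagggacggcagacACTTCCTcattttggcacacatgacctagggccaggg
Lyz2 (chr10:117282336-117282402): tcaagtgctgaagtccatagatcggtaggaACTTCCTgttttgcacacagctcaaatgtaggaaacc
Fcgr1 (chr3:96293994-96294060): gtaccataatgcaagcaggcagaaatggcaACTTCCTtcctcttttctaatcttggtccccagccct
Ly6c2 (chr15:75112042-75112108): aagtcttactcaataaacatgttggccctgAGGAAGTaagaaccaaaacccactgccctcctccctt
The windows of Cd68 and Mpeg1 do not hold these letters. A match is a description of the sequence and not a site shown to be bound. Spi1 itself had a log2 difference of 0.01 (limma adjusted p = 0.975).

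Of the proteins of phagosomes and lysosomes, Cd68 encodes macrosialin, a heavily glycosylated membrane protein of macrophage lysosomes. It was 7.23, 7.76 and 8.15 in GFP livers and 7.19, 7.83 and 8.24 in hApoF livers. The groups covered nearly the same range, and the difference was 0.02 (SE 0.18, interval -0.36 to 0.41, limma adjusted p = 0.958).

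Lyz2 encodes lysozyme M, an enzyme that cuts bacterial cell walls. It had the widest spread of the 10 genes, 7.23, 7.73 and 9.05 in GFP livers (SD 0.81, n = 6) and 7.51, 7.92 and 8.33 in hApoF livers (SD 0.31, n = 6). As for Adgre1, GFP 3 (8.999) and GFP 4 (9.05) were above every hApoF array and the other GFP arrays were not. The difference was -0.13 (SE 0.29, interval -0.75 to 0.50, limma adjusted p = 0.843), and its sign turned without GFP 3 (0.07), without GFP 4 (0.08), with array weights (0.02) and without GFP 4 and hApoF 12 together (0.09).

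Mpeg1 encodes perforin-2, a pore-forming protein that acts on engulfed bacteria. It was 8.95, 9.32 and 9.54 in GFP livers and 8.64, 9.38 and 9.51 in hApoF livers. Its low hApoF value was that of hApoF 12, and the other 5 hApoF arrays lay inside the GFP range. The difference was -0.01 (SE 0.14, interval -0.31 to 0.30, limma adjusted p = 0.981).

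Ly6c2 encodes the surface antigen Ly6C, which is high on inflammatory monocytes fresh from the blood and low on resident macrophages. It has a near-identical neighbour, Ly6c1, which endothelial cells express, and the part of that transcript in this signal was not tested. Ly6c2 was 5.57, 6.20 and 6.61 in GFP livers and 5.52, 5.89 and 6.96 in hApoF livers. The highest array of all 12 was hApoF 11, and the other 5 hApoF arrays, up to 6.06, were below the GFP mean of 6.14. The difference was -0.16 (SE 0.23, interval -0.65 to 0.33, limma adjusted p = 0.732). Within arrays, the change of each of the other 9 genes minus that of Ly6c2 lay between 0.03 and 0.36, and 0 of these 9 differences passed the exact two-sided permutation test, at an unadjusted p under 0.05 (lowest 0.253) or after adjustment over the 9 (lowest 0.754).

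To see how the genes varied apart from the virus, each value was set against the mean of its own group. The within-group SD was 0.61 for Lyz2, 0.56 for Adgre1 and 0.48 for Ly6c2, against a median of 0.17 over all genes, which placed these 3 genes at or above the 99.1 percentile of all genes. The C1q chains, Csf1r and Fcgr1 had SDs of 0.18 to 0.22. The mean level of the 10 genes was lowest in GFP 2 (7.38) and highest in GFP 3 (8.21), and all 6 hApoF arrays lay between them, from 7.54 to 7.93.

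**Figure D2:**
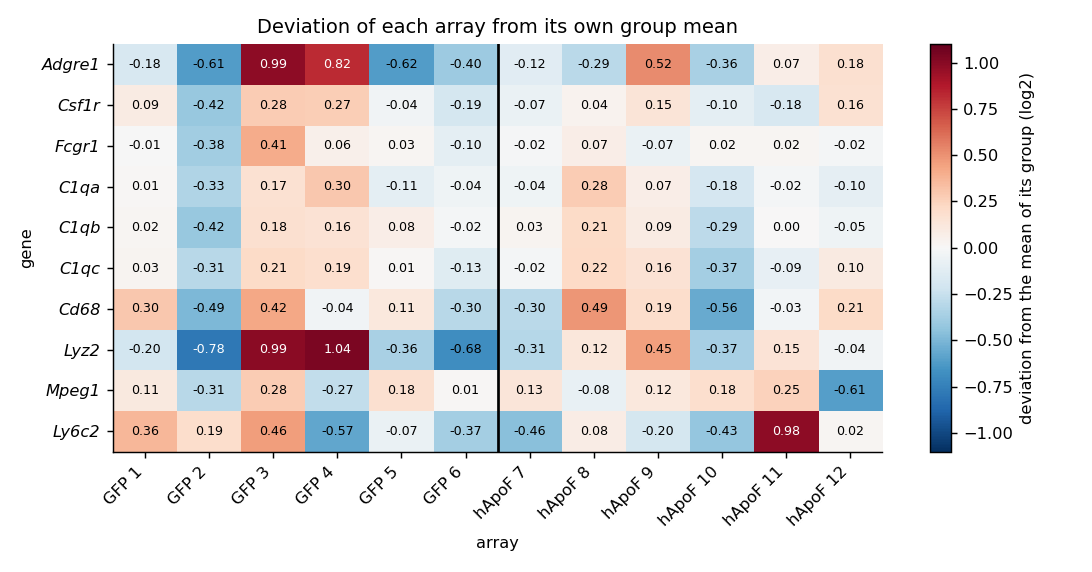
Deviation of each array (columns) from the mean of its own group on the log2 scale for the 10 genes (rows), with red above and blue below the group mean. The GFP 2 column is below 0 for all genes but Ly6c2, the GFP 3 column is above 0 for all 10, and in GFP 4 Ly6c2 and Mpeg1 are well below 0 where Adgre1 and Lyz2 are far above.

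The deviations of 8 of the 10 genes went together. Pearson's r of a gene with the mean of the other 9, over the 12 arrays, was between 0.73 (Cd68) and 0.85 (Lyz2) for 8 genes. It was 0.13 for Mpeg1 and 0.14 for Ly6c2. Without GFP 2 and GFP 3, the arrays farthest from the median, it lay between 0.35 (Fcgr1) and 0.75 (C1qc) for the same 8, and was -0.36 for Mpeg1 and 0.09 for Ly6c2. The C1q chains paired with r of 0.84 to 0.91, and Adgre1 with Lyz2 at 0.93. These values describe 12 arrays that share a normalization and carry no test.

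The genes outside the list whose deviations were most like the mean of the 10 were Sdc3, a syndecan (r = 0.97), Fcer1g, the signalling chain of Fc receptors (0.95), Cybb, a subunit of the phagocyte oxidase (0.94), Laptm5, a lysosomal membrane protein of blood cells (0.94), Syk, the kinase downstream of Fc receptors (0.94), Adpgk, a glucokinase (0.91), Dock2, which drives leukocyte migration (0.91), and Cd52, a leukocyte surface antigen (0.91). Without GFP 2 and GFP 3 these values were 0.77 to 0.94. None of the 8 changed between the groups (limma adjusted p from 0.482 for Dock2 to 0.940 for Cd52). With 6.91% of all genes called, 0 of 8 is near the background share. The 8 were picked for the highest r among all genes, and such a choice by itself favours high values. The genes most like each member were looked at after the values had been seen. Adgre1 was most like Cd5l (0.97), Msn (0.97) and Aif1 (0.95), and Lyz2 most like Siglece (0.96), Aif1 (0.95) and Aoah (0.95). Cd5l is a secreted macrophage protein, Aif1 a cytoskeletal protein of macrophages and Siglece a sialic acid receptor of myeloid cells. The nearest genes of other members were not all genes known from macrophages: they were Gm7244 (0.96) and Tlx3 (0.94) for C1qa, Dnaaf5 (0.97) and Sdhc (0.96) for C1qc, Pepd (0.91) and Tpst2 (0.90) for Mpeg1, and Abca3 (0.89), Tespa1 (0.88) and Stxbp2 (0.87) for Ly6c2.

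Genes largely restricted to Kupffer cells, most of them encoding receptors, were measured in the same arrays. Of 10 measured genes of that list 4 rose, 0 fell and 6 did not pass, with 2.11% of all genes called higher, and their median change was 0.38. This list, like the other lists, was chosen with earlier results of these data known. Its share of calls is therefore a description and not a test against that background. Clec4f, a lectin of Kupffer cells, was 5.42, 6.26 and 7.06 in GFP livers and 6.82, 7.45 and 8.33 in hApoF livers (2.39-fold, log2 change 1.26, SE 0.27, limma adjusted p = 0.010). Vsig4, a complement receptor, was 5.08, 6.28 and 6.90 against 6.43, 7.39 and 8.87 (2.61-fold, log2 change 1.38, SE 0.38, limma adjusted p = 0.0375). Cd163, the haemoglobin scavenger receptor, rose by 0.96 (SE 0.25, limma adjusted p = 0.0314). Clec1b, a lectin receptor, rose by 0.40 (SE 0.08, limma adjusted p = 0.00766) with no overlap between the groups. For each of the 4 all 6 hApoF arrays were above the GFP mean, and for Clec4f, Vsig4 and Cd163 the groups overlapped.

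The Kupffer list was not uniform. Timd4, a receptor for dying cells, had a difference of 0.81 (limma adjusted p = 0.110), Marco, a scavenger receptor, 0.26 (0.703), Cd5l 0.12 (0.726) and Spic, a transcription factor of iron-recycling macrophages, -0.16 (0.665). By their deviations Cd5l, Marco and Spic went with the mean of the 10 general genes (r = 0.88, 0.77 and 0.77), or 0.73, 0.73 and 0.42 without GFP 2 and GFP 3. For Clec4f (-0.21), Vsig4 (0.02), Cd163 (-0.36) and Clec1b (-0.35) r was near or below 0, and without GFP 2 and GFP 3 it was -0.11, 0.28, -0.33 and -0.07. It was 0.41 for Timd4, 0.36 for Folr2 and -0.25 for Cd207. Vsig4 lost its call with trend and robust settings (limma adjusted p = 0.0899, range over its alternatives 0.0166 to 0.0899) and without any of GFP 1, 2 and 3 and hApoF 7, 9, 11 and 12, and Cd163 with those settings and without any of GFP 1, 2, 3 and 4 and hApoF 7 and 11. Clec4f (limma adjusted p from 0.00479 to 0.035) and Clec1b (0.00201 to 0.024) kept their calls under all 19 alternatives. The list's count was 2 with trend and robust settings and without GFP 1, GFP 2, GFP 3, hApoF 7 or hApoF 11.

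Whether the Kupffer genes changed by another amount than the general genes was tested on the within-array difference of each pair, 100 pairs in all, after the values had been seen. By the exact two-sided permutation test 39 pairs had an unadjusted p under 0.05, and 0 passed after adjustment over the 100 (lowest adjusted p = 0.0825). The 39 included all 10 pairs with Clec4f, whose change exceeded that of the general genes by 1.06 (C1qa) to 1.42 (Ly6c2), and all 10 with Vsig4, by 1.19 to 1.55. These 20 pairs were tested first, and had been picked as the largest risers in the same arrays. With adjustment over them alone all 20 passed (adjusted permutation p from 0.0186 to 0.0325). Such a choice by itself favours low p-values, so no conclusion is drawn from these 20. Many pairs share a gene and all share the same arrays, so the numbers of pairs do not count separate results. Without GFP 6, 18 of the 100 pairs passed. The difference between the gene groups therefore did not hold after adjustment over all pairs.

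**Figure D3:**
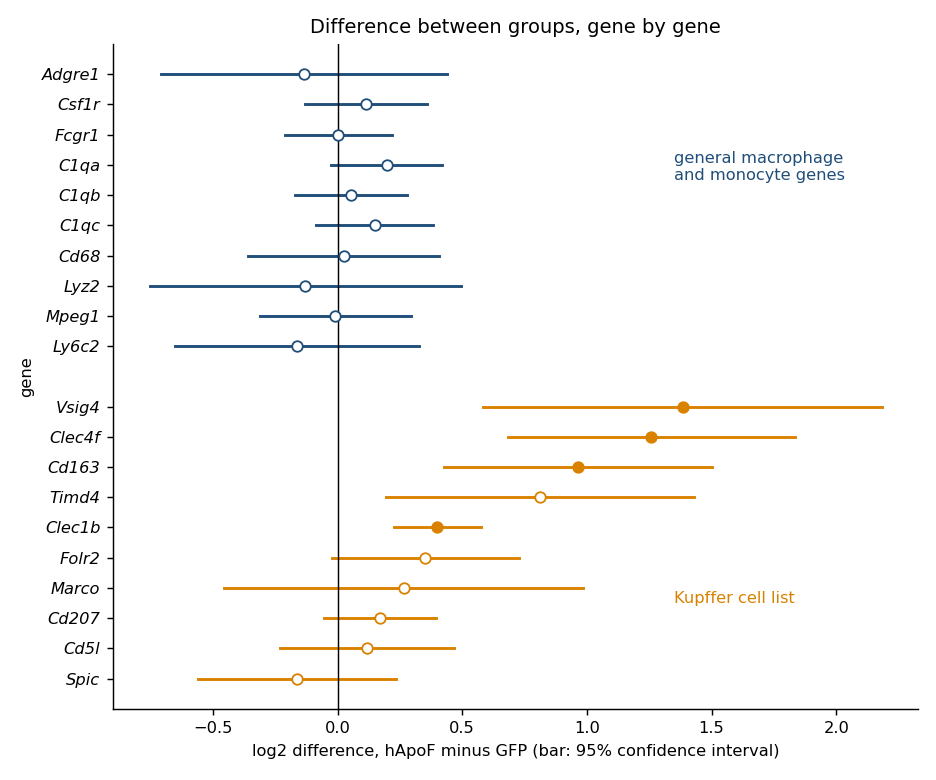
Log2 difference, hApoF minus GFP (horizontal axis), with its 95% confidence interval for the 10 general macrophage and monocyte genes (blue) and the Kupffer cell list (orange). Filled points passed the limma test: 0 of the 10 general genes and Vsig4, Clec4f, Cd163 and Clec1b of the Kupffer list.

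Other genes of the same pathways were called at shares to be read against the 2.11% of all genes called higher and 4.8% called lower; with lists this short, 0 or 1 call is near that background. Of 15 phagocyte receptors 1 rose and 0 fell (median change 0.10). They were Fc, complement and integrin receptors and also Msr1, Mertk, Axl, Cd14, Tlr2 and Tlr4. The gene that rose was Fcgr2b, the inhibitory Fc receptor, by 0.37 (limma adjusted p = 0.0145). It is known to be strongly expressed by the sinusoidal endothelium of the liver. Fcgr3 and Fcgr4, the activating receptors beside Fcgr1, had differences of 0.10 and 0.02 (limma adjusted p = 0.509 and 0.958). Of 10 Csf1r ligands, macrophage transcription factors and other macrophage genes (Trem2 and Tyrobp) 1 rose and 0 fell (median 0.11). It was Maf, by 0.27 (limma adjusted p = 0.0267), a call lost when arrays were centred on their medians (0.083, range over its alternatives 0.0048 to 0.083), with the mean of its 2 probe sets, and without GFP 1, GFP 2, GFP 5, hApoF 10, hApoF 11 or GFP 4 and hApoF 12 together. The ligands Csf1 and Il34 differed by -0.10 and 0.13 (limma adjusted p = 0.646 and 0.304).

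None of the 7 measured partners of C1q in the classical pathway passed the limma test (median change -0.03). An unadjusted p under 0.05 was reached by 0 of them and by 21.3% of all genes. The lowest p were those of C1s2, at -0.19 (limma adjusted p = 0.533) and far below the array medians, and of C4b, the next component in the cascade, at 0.12 (0.588). Of 15 lysosomal proteins 1 rose and 0 fell (median 0.04). That gene was Npc2, which carries cholesterol out of lysosomes. It was 7.95, 8.07 and 8.25 in GFP livers and 8.37, 8.47 and 8.77 in hApoF livers, with no overlap (log2 change 0.42, SE 0.08, limma adjusted p = 0.00511). The list's count of higher genes was 2 without hApoF 12 and 3 among brighter genes, and with trend and robust settings 3 were higher and 1 lower.

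The list of monocyte and infiltrating macrophage genes, beside which Ly6c2 belongs, had 2 of 14 higher and 0 lower, with a median change of 0.09. Ccr2, the chemokine receptor by which inflammatory monocytes leave the bone marrow, was 4.88, 5.09 and 5.31 in GFP livers and 5.31, 5.59 and 5.77 in hApoF livers. The highest GFP and the lowest hApoF array were equal at this rounding, the groups did not overlap, and the rise was 0.46 (SE 0.09, limma adjusted p = 0.00633). Its GFP values lay close to the array medians of 4.93 to 5.03, so the level itself was low. Fn1, fibronectin, which hepatocytes also make in quantity, rose by 0.24 (limma adjusted p = 0.0462), a call lost in 12 of 19 other settings and omissions: when arrays were centred or quantile normalized again, and without GFP 1, 2, 3, 4 or 6 or any of hApoF 7 to 11. Whether Ccr2 and Ly6c2 changed by different amounts was not tested.

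Markers of other cells were measured in the same arrays, where 21.3% of all genes had an unadjusted p under 0.05. None of 12 pan-leukocyte genes passed the limma test and 0 had an unadjusted p under 0.05 (median change 0.06, lowest p for Cd53, 0.19, limma adjusted p = 0.369, and Coro1a, 0.13, 0.407). The mean level of that list was 6.38 to 7.002 in GFP livers and 6.62 to 6.74 in hApoF livers. Of 11 sinusoidal endothelial markers 3 rose and 0 fell (median 0.30), 8 had an unadjusted p under 0.05 and all 11 had a difference above 0, with mean levels of 8.04 to 8.50 and 8.36 to 8.66. They were Kdr, a receptor for vascular growth factor (0.44, limma adjusted p = 0.00894), Mrc1, the mannose receptor that some macrophages share (0.37, 0.0429), and Dnase1l3 (0.34, 0.0462). The last 2 lost their calls when arrays were centred and without any of GFP 1, 2, 3, 5 and 6 and hApoF 8 to 11, which left 1 call in each of these settings. Dnase1l3 also lost its call without hApoF 12, which left 2, while 7 were called without GFP 4 and 6 with trend and robust settings.

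Of 13 neutrophil markers 2 rose and 0 fell (median 0.21) and 6 had an unadjusted p under 0.05, beside 21.3% of all genes. Those that rose were Mmp8, a collagenase (0.52, limma adjusted p = 0.0163), and S100a9, a calcium-binding protein (0.40, 0.0487). Both had GFP means below the array medians (4.25 and 3.97), where the lower quartile of all values was 3.74 to 3.80 in hApoF arrays against 3.66 to 3.72 in GFP arrays other than GFP 4 (3.80). The part of that shift in these rises was not tested. Mmp8 kept its call in all 18 alternatives that included it (limma adjusted p from 0.0075 to 0.0429). Array centring and renewed quantile normalization were among them. S100a9 lost its call when arrays were centred or quantile normalized again and without any of GFP 1, 2, 3, 5 and 6 and hApoF 7, 8, 10 and 11.

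No gene passed the limma test among 13 T and NK cell markers (3 with an unadjusted p under 0.05), 7 B cell markers (1), 8 dendritic cell markers (1) and 9 hepatocyte markers (4). An unadjusted p under 0.05 was reached by 21.3% of all genes. The lowest p were those of Cd4 (-0.25, limma adjusted p = 0.0851) and Cd3d (0.16, 0.198), of Cd79a (0.27, 0.0634) and Ms4a1 (0.22, 0.339), of Zbtb46 (0.25, 0.0709) and Itgae (0.20, 0.238), and of Tat (0.27, 0.0572) and Fgb (0.19, 0.0801). Some of these passed under other settings, with Cd4 called lower among brighter genes only, Cd79a called without GFP 4 (0.023, range over its alternatives 0.023 to 0.139), Zbtb46 without hApoF 10, Tat without GFP 4 or GFP 5, and 3 hepatocyte genes with trend and robust settings. The hepatocyte list had mean levels of 11.78 to 11.93 in GFP livers and 11.89 to 12.07 in hApoF livers, far above the array medians in both. The part of the endothelial, neutrophil and hepatocyte markers in the levels of the 10 general genes was not tested.

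**Figure D4:**
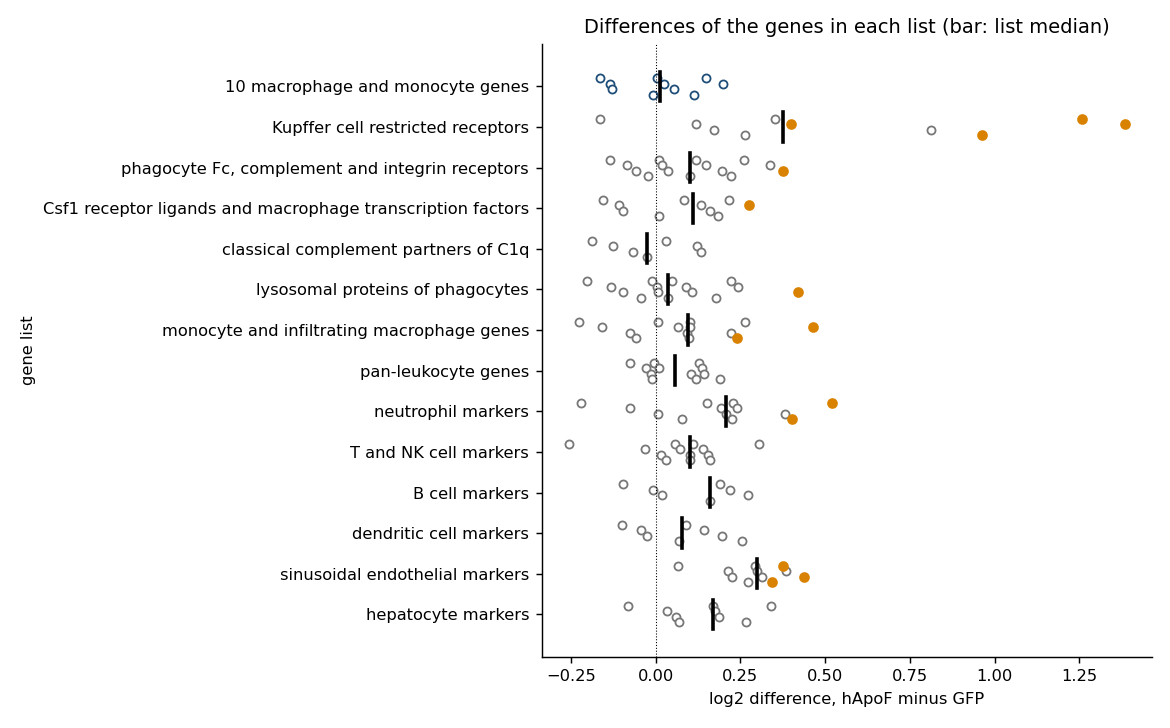
Log2 difference, hApoF minus GFP (horizontal axis), of every measured gene in each list, with a bar at the list median and filled orange points for genes that passed the limma test. The 10 general macrophage and monocyte genes (top, blue) lie between -0.16 and 0.20 with 0 calls, and the Kupffer cell list reaches 1.38.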

How the data were processed

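The authors deposited 1 table of log2 intensities, a value for each probe set on each of 12 arrays, made with oligo and RMA, per the submitters' processing notes; RMA as a method corrects background, quantile normalizes and summarizes probes by median polish. No source used here states versions, a genome build or the annotation release. RMA makes arrays comparable by assuming like distributions, so a change shared by most genes would be removed. Array medians were 4.93 to 5.03, and pairwise correlations across probe sets 0.982 to 0.993. Precision is limited by the number of arrays. The labels do not say that each array is a separate animal, so p-values measure the spread between samples.

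Of 35145 probe sets, 23521 had 1 gene symbol (platform annotation, which can be old), 1814 several and 9810 none. Genes were represented by the brightest probe set over all arrays, with no filter on dim ones. Groups came from sample titles. The fit was limma 3.58.1 (lmFit, eBayes) in R 4.3.3 without covariates, adjusted by Benjamini-Hochberg over 22180 genes. Exact permutation tests were two-sided over 924 assignments (smallest possible p 0.0022). In a simulation of the same 22180 genes, 50 were given a log2 shift of 0.5, and limma found 70% of them. With a shift of 1, given to another 50, it found 98%. These rates are averages over the shifted genes and need not hold for genes with a wide spread. Within-group SDs were 0.61 for Lyz2, 0.56 for Adgre1 and 0.48 for Ly6c2, against a median of 0.17 over all genes.

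The members and lists were chosen with earlier results of these data known. Named are all members, from each of 13 lists up to 4 called genes with the lowest p, or 2 where none passed, and the 8 genes most like the members. Other genes were named after their values were seen. In the lists, 144 of 153 entries were measured under 1 symbol. Alternatives were array centring, renewed quantile normalization, trend and robust settings, array weights, brighter genes only (mean above 4.99), the mean of probe sets, and omission of arrays. Promoter sequences are RefSeq's (GRCm38.p6). Tables used Python 3.11.15 and pandas 2.3.3, plots matplotlib 3.10.9.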

Additional observations from a re-analysis of the deposited data

Results flagged for a closer look

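In the 88 groups of 6 arrays examined (each gene named by the rule, in each virus group), an extreme array stood apart from the rest of its group in 3, at a limit that chance passes in about 1 of 20 groups. C1qb was 9.27 in GFP 2, and the next GFP array was at 9.67. Ms4a1, a B cell marker, was 5.11 in hApoF 12, with the next at 4.47. Mrc1, the mannose receptor, was 9.43 in hApoF 12, with the next at 8.97.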

How the results depend on the processing

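The count of called members was 0 under all 19 alternatives by gene and all 16 by probe set, and 0 of 9 differences from Ly6c2 passed under any of the alternatives run. Signs of member differences near 0 turned, without a call: Cd68 was -0.0069 with arrays centred, -0.0138 with array weights and -0.0249 without GFP 4 and hApoF 12, Lyz2 0.0221 with array weights and 0.0861 without those 2 arrays, Mpeg1 0.0021 after renewed quantile normalization, 0.0423 with array weights and 0.0590 without the 2 arrays, and Fcgr1 -0.0275 with arrays centred. Of the like genes, Fcer1g was 0.0232 without the 2 arrays and Cd52 0.0304 after renewed quantile normalization. Omitting 1 array at a time kept the sign for C1qa (0.132 to 0.257), C1qc (0.0868 without GFP 2 to 0.223 without hApoF 10), Csf1r (0.0297 without GFP 2 to 0.170 without GFP 3) and Ly6c2 (-0.360 without hApoF 11 to -0.0712 without GFP 3 or hApoF 7). It gave Adgre1 -0.258 to 0.0627, C1qb -0.0314 to 0.110, Cd68 -0.0751 to 0.135, Lyz2 -0.286 to 0.0783, Mpeg1 -0.0699 to 0.113, Fcgr1 -0.0727 to 0.0849, Sdc3 -0.0309 to 0.107, Fcer1g -0.171 to 0.0635, Laptm5 -0.0257 to 0.137, Cd52 -0.0893 to 0.0658, Adgre1 minus Ly6c2 -0.13 to 0.31 and Lyz2 minus Ly6c2 -0.16 to 0.36. The count of all called genes was 1015 to 1988 with 1 array omitted (1019 without GFP 2, 1015 without GFP 3, 1021 without GFP 6). Genes called over the 13 lists numbered 14, 9 with arrays centred, 23 among brighter genes, where fewer genes were tested, and 7 to 19 with 1 array omitted (7 without GFP 1, GFP 2 or hApoF 11, 8 without GFP 3). Of the 100 Kupffer pairs 0 to 18 passed with 1 array omitted (18 without GFP 6), and the cause was not tested. Higher genes made up 30.6% of calls, 21.3% with arrays centred and 38.3% after renewed quantile normalization, and numbered 469, or 254 to 653 with 1 array omitted (254 without GFP 2, 267 without GFP 3 or GFP 6, 307 without GFP 1). No paired analysis was run because the labels give no pairing of arrays between the groups.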
